A study of Homo sapiens with 6 samples.

Results

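The genes described here act on non-muscle myosin II, the motor that contracts actin filaments. They comprise the targeting subunits of myosin phosphatase (PPP1R12A, PPP1R12B and PPP1R12C), its catalytic subunit (PPP1CB), myosin light chain kinase (MYLK), the regulatory light chains (MYL9, MYL12A and MYL12B) and the kinases ROCK1 and ROCK2. The rule that picks them uses gene names and no measured value, but the genes were chosen with earlier results of these data known. All 10 were found among the 28395 genes of the count table, and 9 had enough counts to be tested.

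Myosin II is switched on when a threonine and a serine near the start of its regulatory light chain are phosphorylated. Myosin light chain kinase, activated by calcium and calmodulin, adds the phosphate, and myosin phosphatase removes it. In the phosphatase a targeting subunit holds the catalytic subunit PP1 beta on myosin. The ROCK kinases phosphorylate both the light chain and the targeting subunit, and the targeting subunit MYPT1, encoded by PPP1R12A, is also a known substrate of the NUAK kinases.

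The RNA came from U251, an established human glioblastoma cell line. WT libraries (n = 3) were compared with NUAK2-CR libraries (n = 3), which came from U251 cells targeted with CRISPR-Cas9 at NUAK2, a kinase of the AMPK-related family. According to the methods, guides were delivered by lentiviral vectors carrying GFP or mCherry, and cells positive for both were sorted into multiwell plates, from which clones were grown. The labels name no clone, and a supplementary legend describes the comparison as one against the CR-3 clone, so the 3 NUAK2-CR libraries may be 1 clone and a property of that clone cannot be told apart from NUAK2 loss. Nothing in the labels shows that replicates were separate cultures, so the p-values measure only the spread between these libraries.

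Each library held 29648445 to 55574081 counts. NUAK2 transcript, the check of the labels, had 1926, 1457 and 1580.1 normalized counts in the WT libraries, against 799, 961 and 849 in NUAK2-CR. The groups did not overlap (log2 fold change -0.93, SE 0.11, adjusted p = 1.80e-05). NUAK2 transcript was thus still present in every NUAK2-CR library, and gene counts do not show the edit itself. WT replicate 1, the deepest library, stood somewhat apart, with a median absolute log2 difference of 0.191 and 0.178 from the other WT libraries, against 0.124 between those and 0.106 to 0.122 among the NUAK2-CR libraries. The astroglial and glioma markers were present, led by GFAP and VIM. Their summed normalized counts were 233409 to 239602 in WT but 111407 to 118259 in NUAK2-CR. Of 8 tested markers 5 were lower and 1 higher at an adjusted p under 0.05, against 28.2% and 26.3% of all tested genes. The lower markers were GFAP, VIM, NES, SOX2 and S100B, and the higher one was EGFR. GFAP had the largest fall in counts, on average from 88323 in WT to 14984 in NUAK2-CR (log2 fold change -2.56). OLIG2 was at 0 in every library and AQP4 had at most 3 counts.

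The light chain genes differed most in level, so the stretch around their phosphorylated residues is shown first. Each line gives 90 coding bases of exon 2 from the GENCODE v44 transcript on GRCh38, plus strand, with the adjacent threonine and serine codons in capitals. MYL12A is at chr18:3253257-3253346, MYL12B at chr18:3272911-3273000 and MYL9 at chr20:36544897-36544986.
MYL12A: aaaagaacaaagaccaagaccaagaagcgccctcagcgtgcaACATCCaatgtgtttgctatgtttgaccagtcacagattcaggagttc
MYL12B: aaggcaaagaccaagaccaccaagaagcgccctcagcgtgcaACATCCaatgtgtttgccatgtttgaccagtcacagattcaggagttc
MYL9: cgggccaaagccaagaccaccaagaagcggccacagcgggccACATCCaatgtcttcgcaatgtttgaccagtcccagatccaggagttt
The phosphorylated pair is encoded by codons 18 and 19 of MYL12A and by codons 19 and 20 of MYL12B and MYL9, counting the start codon as 1. The same 6 bases encode it in all 3 genes. In these windows MYL12A and MYL12B differ at 12 of 90 bases, MYL12B and MYL9 at 15, and MYL12A and MYL9 at 24. Over the coding sequence MYL12A and MYL12B share 92.8% of bases and 95.3% of residues. Even so, no 100-base stretch of either transcript, the read length of the study, occurs in a transcript of another gene, and their longest shared run is 77 bases.

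MYL9, the light chain typical of smooth muscle, was at or near 0 in both groups. It had 1 read in WT replicate 1 and 0 reads in the other 5 libraries, so it was not tested. At these depths a count of 0 allows up to 3 counts, a limit that covers counting error only. MYL12A and MYL12B, the light chains of non-muscle cells, carried the regulatory light chain message. Per transcript length, MYL12A was at least 4371-fold and MYL12B at least 6017-fold higher than MYL9 in each of the 5 libraries without a MYL9 read. MYL9 stayed at 0 reads in all 3 NUAK2-CR libraries, in which the smooth muscle actins ACTA2 (log2 fold change 4.52, SE 0.10, adjusted p = 1.07e-11) and ACTG2 (7.14, SE 0.11, adjusted p = 1.08e-12) were higher. These actins belong to a list of 8 smooth muscle markers. The summed normalized counts of the list were 5602 to 7011 in WT and 12256 to 13642 in NUAK2-CR. Most of that rise came from the actins, on average from 93.0 to 2138 for ACTA2 and from 30.7 to 4347 for ACTG2. Of 6 tested markers 4 were higher, including TAGLN (0.54) and LMOD1 (1.42), and 2 were lower, CNN1 (-1.52) and SMTN (-0.44). Over all tested genes 26.3% were higher and 28.2% lower at an adjusted p under 0.05. The defining smooth muscle genes MYH11 and DES were near 0 and were not tested. In bulk libraries a change in the number of cells that express a gene and a change in its RNA per cell cannot be told apart.

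**Figure D1:**
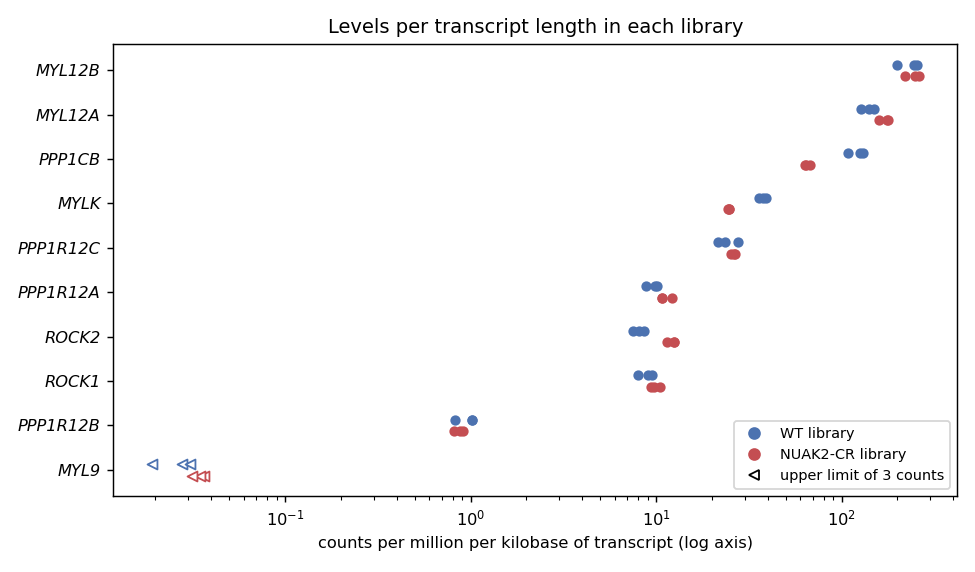
Level of each gene per kilobase of transcript, in CPM per kilobase on a log axis, in each WT (blue) and NUAK2-CR (red) library. The open triangles for MYL9 mark the limit of 3 counts, at most 0.0365 on this scale, and MYL12B is at the top in both groups.

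Levels of different genes were compared as CPM, the count scaled to library size, per kilobase of transcript. In WT the order ran from MYL12B (233 ± 29.5, SD, n = 3) and MYL12A (139 ± 11.3) to PPP1CB (122 ± 11.97), MYLK (37.5 ± 1.66), PPP1R12C (24.3 ± 3.02), PPP1R12A (9.60 ± 0.714), ROCK1 (8.86 ± 0.757), ROCK2 (8.07 ± 0.569) and PPP1R12B (0.950 ± 0.111). The libraries of MYL12A and PPP1CB overlapped, as did those of PPP1R12A and ROCK1 and those of ROCK1 and ROCK2, so these neighbours were not separated. In NUAK2-CR the top 2 genes were unchanged in rank, at 243 ± 21.8 for MYL12B and 171 ± 10.2 for MYL12A. PPP1CB followed at 65.4 ± 2.16 and no longer overlapped MYL12A. PPP1R12C (26.1 ± 0.821) now lay just above MYLK (24.6 ± 0.214), and ROCK2 (12.1 ± 0.598) lay beside PPP1R12A (11.2 ± 0.829), with overlapping libraries, and above ROCK1 (9.90 ± 0.537). PPP1R12B was the lowest tested gene in both groups, at 0.865 ± 0.0485 in NUAK2-CR. These levels rest on 1 transcript length per gene, and a different isoform would shift a gene along this scale.

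Which of these genes differed between WT and NUAK2-CR was asked with edgeR's quasi-likelihood test, adjusted by Benjamini-Hochberg over the 14873 genes tested. Of the 9 tested genes, 5 passed an adjusted p of 0.05, or 55.6%, against 54.5% of all tested genes. ROCK2, MYL12A and PPP1R12A were higher in NUAK2-CR, where 26.3% of all tested genes were higher. PPP1CB and MYLK were lower, as were 28.2% of all tested genes. The WT and NUAK2-CR libraries did not overlap for 5 of the 9 genes, against 61.4% of all tested genes. None of the 9 passed the study's fold rule of an absolute log2 fold change over 2, which 4.72% of all tested genes passed. As a group these genes were therefore called about as often as the background, and their median absolute log2 fold change was 0.23 against 0.37 over all tested genes. Their median log2 fold change was 0.10, against -0.01 over all tested genes. Without WT replicate 1, 7 of the 9 genes passed, 5 of them higher, since PPP1R12C and ROCK1 were then also called.

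**Figure D2:**
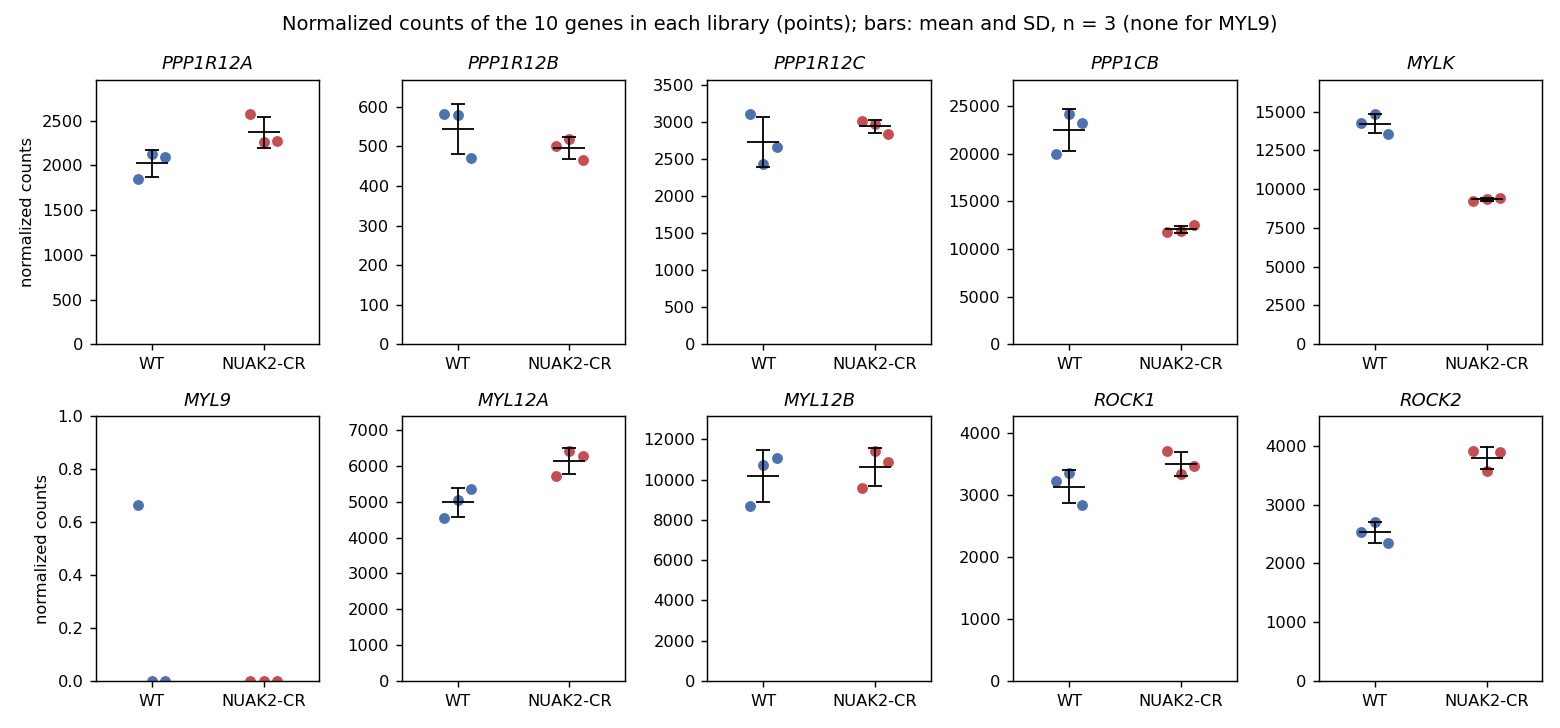
Normalized counts (counts brought to 1 common library size) of the 10 genes in each WT (blue) and NUAK2-CR (red) library, with mean and SD (n = 3); axes start at 0 and differ between panels. PPP1CB and MYLK sit lower and ROCK2 higher in all 3 NUAK2-CR libraries, and MYL9 has a single read in WT replicate 1.

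PPP1CB, which encodes the catalytic subunit PP1 beta, had the largest change of the 9 genes. It lies on chromosome 2 (28751604 to 28802940, plus strand, GRCh38). Its normalized counts were 19962.5, 24149.5 and 23263.5 in WT, against 11767, 11918 and 12518.5 in NUAK2-CR. All NUAK2-CR libraries lay well below all WT libraries. The mean fell from 22458.5 ± 2207 (SD, n = 3) to 12068 ± 398, or 53.7% of WT (log2 fold change -0.90, SE 0.08, adjusted p = 1.33e-06). Of all tested genes, 82.4% had a smaller absolute log2 fold change. Part of the PPP1CB transcript, 7.56% of its 100-base stretches, also occurs in transcripts of SPDYA. The sequence of a 100-base read there does not show which gene it came from. SPDYA had only 4 to 23 counts per library.

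The other PP1 catalytic subunits, PPP1CA and PPP1CC, can also pair with many PP1 partners, but the myosin phosphatase holds PP1 beta. PPP1CA was lower by less (log2 fold change -0.30, SE 0.08, adjusted p = 0.00510). PPP1CC did not pass the test (-0.16, SE 0.06, adjusted p = 0.0513), although its WT and NUAK2-CR libraries did not overlap. It passed without WT replicate 1 (-0.14, adjusted p = 0.0454) and with at least 10 counts required in every library (-0.16, adjusted p = 0.0482). PPP1CB made up 37.5%, 44.1% and 41.0% of the message of the 3 catalytic subunits per transcript length in WT and 29.998%, 30.1% and 31.6% in NUAK2-CR. This share was lower in every NUAK2-CR library, with a mean difference of -10.3 percentage points, and it was computed after the values of PPP1CB had been seen.

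The targeting subunits did not follow PPP1CB. PPP1R12A (MYPT1; chromosome 12, 79773563 to 79935460, minus strand) had 1851, 2129 and 2091 normalized counts in the WT libraries and 2573, 2267 and 2273 in the NUAK2-CR libraries. The groups did not overlap, with a narrow gap. The mean was 2024 ± 151 in WT and 2371 ± 175 in NUAK2-CR, or 117% of WT (log2 fold change 0.23, SE 0.08, adjusted p = 0.0293). Without NUAK2-CR replicate 1, the highest library, PPP1R12A did not pass the test (0.18, adjusted p = 0.115).

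PPP1R12C (MBS85; chromosome 19, 55090918 to 55117637, minus strand) was the most abundant targeting subunit. Its normalized counts were 3103, 2436 and 2659 in WT, against 3011, 2970.4 and 2835 in NUAK2-CR. All NUAK2-CR libraries lay within the WT range (log2 fold change 0.10, SE 0.09, adjusted p = 0.338). It passed only without WT replicate 1, its highest WT library (0.21, adjusted p = 0.00962).

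PPP1R12B (MYPT2; chromosome 1, 202348699 to 202592702, plus strand), the targeting subunit best known from heart and brain, was the least abundant. It had 581, 579 and 469.7 normalized counts in WT, against 502, 519 and 464 in NUAK2-CR. The groups overlapped (-0.14, SE 0.11, adjusted p = 0.330). Within each library PPP1R12C made up 66.1% to 73.8% of the targeting subunit message per transcript length in WT and 67.2% to 69.4% in NUAK2-CR. The PPP1R12A share was 23.5%, 30.8% and 28.8% in WT and 30.6%, 28.2% and 29.3% in NUAK2-CR. Neither share was separated between groups. The PPP1R12B share was 2.73% ± 0.350 in WT and 2.26% ± 0.103 in NUAK2-CR, without overlap per length but with overlap in read shares. Counts of PPP1CB for each count of PPP1R12A were 10.8, 11.3 and 11.1 in WT and 4.57, 5.26 and 5.51 in NUAK2-CR, a ratio of read counts and not of molecules.

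MYLK encodes the kinase that acts on the same light chain residues. It lies on chromosome 3 (123610049 to 123884332, minus strand). Its normalized counts were 14272, 14839.5 and 13583 in WT, against 9259, 9349 and 9422 in NUAK2-CR. Every NUAK2-CR library was lower, and the NUAK2-CR libraries lay close together. The mean fell from 14231 ± 629 to 9343 ± 81.3, or 65.7% of WT (log2 fold change -0.61, SE 0.06, adjusted p = 6.38e-06). The gene also yields a short transcript for telokin, a protein without kinase activity, and gene counts do not separate it from the kinase. The antisense genes MYLK-AS1 and MYLK-AS2 overlap MYLK and had at most 39 and 2 counts.

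The kinase MYLK and the catalytic subunit PPP1CB were both lower, and they were set against each other within libraries. MYLK counts for each PPP1CB count were 0.715, 0.614 and 0.584 in WT and 0.787, 0.784 and 0.753 in NUAK2-CR. The groups did not overlap, and the mean was 0.638 ± 0.0686 in WT and 0.775 ± 0.0191 in NUAK2-CR, with WT replicate 1 nearest to NUAK2-CR. Counts of MYLK for each count of PPP1R12A were 7.06 ± 0.611 in WT and 3.96 ± 0.309 in NUAK2-CR. The order of the groups therefore depended on which phosphatase subunit MYLK was set against. These ratios were chosen after the values had been seen and were not tested.

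**Figure D3:**
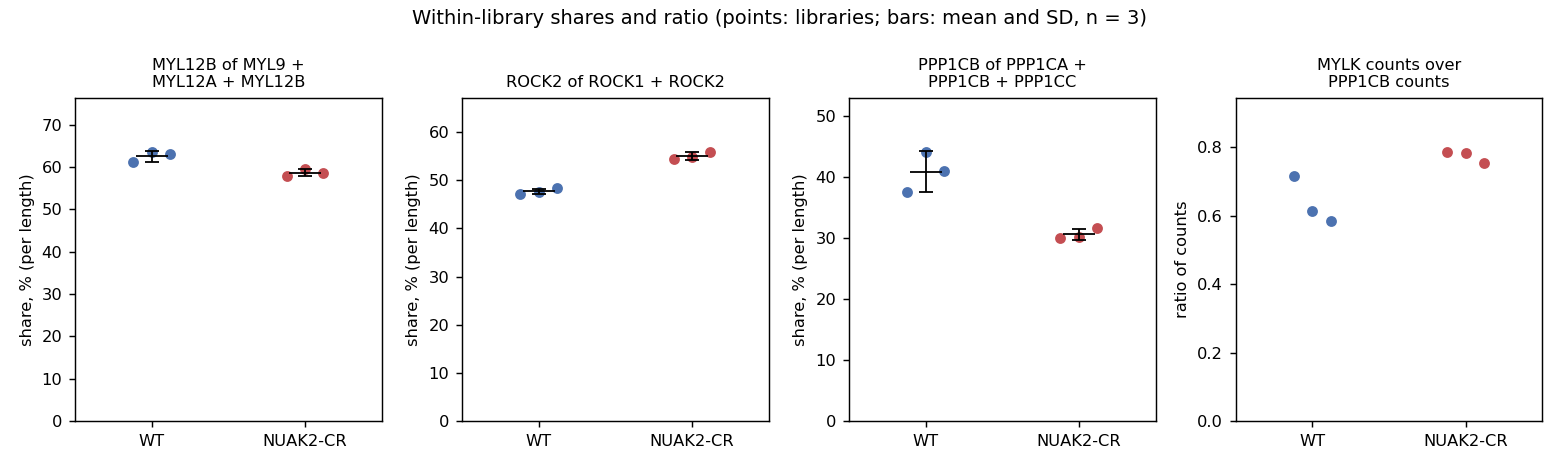
Share of MYL12B among the regulatory light chains, of ROCK2 among the ROCK kinases and of PPP1CB among the PP1 catalytic subunits (percent, per transcript length), and counts of MYLK for each count of PPP1CB, in each library with mean and SD (n = 3). The groups are separated in all 4 panels, with MYL12B and PPP1CB shares lower and the ROCK2 share and the MYLK ratio higher in NUAK2-CR.

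MYL12A and MYL12B lie side by side on chromosome 18 (3247482 to 3256237 and 3262133 to 3278461, plus strand). MYL12A had 4555, 5056 and 5356 normalized counts in WT, against 5725, 6416 and 6287 in NUAK2-CR. All NUAK2-CR libraries were above all WT libraries (mean 4989 ± 405 in WT and 6143 ± 367 in NUAK2-CR, log2 fold change 0.30, SE 0.08, adjusted p = 0.00573). MYL12B had 8697, 10737 and 11078 in WT and 9568, 11424 and 10855 in NUAK2-CR. These overlapped (0.06, SE 0.10, adjusted p = 0.615), and without WT replicate 1 the sign turned (-0.032, adjusted p = 0.725). MYL12B held 61.1%, 63.6% and 63.0% of the regulatory light chain message per transcript length in WT and 57.9%, 59.5% and 58.7% in NUAK2-CR. The share was lower in every NUAK2-CR library, with a mean difference of -3.89 percentage points. With MYL9 nearly absent it depends almost only on MYL12A and MYL12B, and of these MYL12A alone passed the test. The share planned beforehand was that of MYL9.

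ROCK1 and ROCK2 encode closely related kinases that promote contraction. ROCK2 (chromosome 2, 11179759 to 11345437, minus strand) had 2535, 2700.1 and 2344 normalized counts in WT, against 3912, 3577 and 3889 in NUAK2-CR. All NUAK2-CR libraries were clearly above WT. The mean rose from 2527 ± 178 to 3793 ± 187, or 150.1% of WT (log2 fold change 0.59, SE 0.07, adjusted p = 2.91e-05), and 68.4% of all tested genes had a smaller absolute log2 fold change.

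ROCK1 (chromosome 18, 20946906 to 21111813, minus strand) had 3222, 3356 and 2839 normalized counts in WT, against 3714, 3341 and 3466 in NUAK2-CR. The groups overlapped at 1 library each (0.16, SE 0.08, adjusted p = 0.105). ROCK1 passed the test only without WT replicate 1 (0.18, adjusted p = 0.0418). The pseudogene ROCK1P1 shares 7.06% of the 100-base stretches of ROCK1 and had 58 to 100 counts per library. ROCK2 was 47.1%, 47.7% and 48.3% of the ROCK message per transcript length in WT and 54.4%, 54.8% and 55.9% in NUAK2-CR. ROCK1 was thus the larger part of the pair in every WT library and ROCK2 in every NUAK2-CR library.

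**Figure D4:**
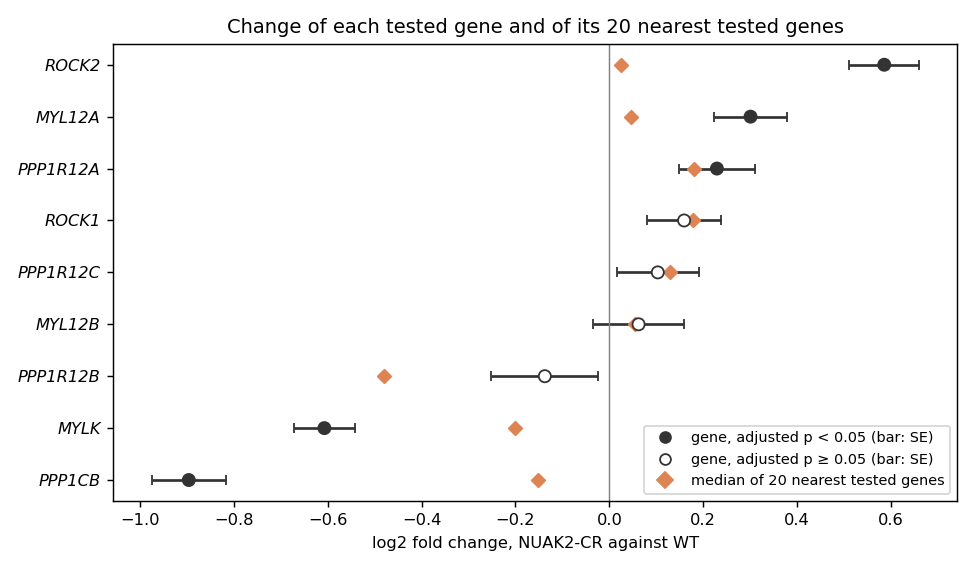
Log2 fold change (NUAK2-CR against WT, bar SE) of the 9 tested genes, filled where the adjusted p was under 0.05, with the median of the 20 nearest tested genes as a diamond. PPP1CB and MYLK lie below their neighbours' medians of -0.15 and -0.20, PPP1R12B above its median of -0.48, and ROCK2 above its median of 0.024.

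Neighbouring genes can move together in an edited clone, so each gene was set beside the 20 tested genes nearest to it. The neighbours of PPP1CB had a median log2 fold change of -0.15, with 3 called higher and 4 lower, and 3 of them lay below PPP1CB itself. For MYLK the median was -0.20, 4 neighbours were higher and 9 lower, and 7 lay below MYLK. Those of ROCK2 had a median of 0.024, and 16 lay below ROCK2. The medians beside PPP1R12A (0.23) and ROCK1 (0.16) were both 0.18, and that beside PPP1R12C (0.10) was 0.13. These medians depended on how many neighbours were taken. With 10 neighbours they were 0.29 for PPP1R12A, 0.036 for ROCK1, 0.32 for PPP1R12C, -0.27 for MYLK, -0.23 for PPP1CB and -0.092 for ROCK2. With 50 they were -0.048 for MYLK, where 12 neighbours were higher and 14 lower, and 0.020 for PPP1CB. PPP1R12B, on the chromosome that also carries NUAK2, was in the region most often lower: 13 of its 20 neighbours were lower and 2 higher, with a median of -0.48. Among its 50 nearest tested genes, which reached NUAK2, 31 were lower and 4 higher, and PPP1R12B itself did not pass the test. The part of a regional change in any of these values was not tested.

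The genes whose libraries followed PPP1CB and ROCK2 most closely were looked up by the Euclidean distance between centred log2 profiles over the 6 libraries, among 12056 genes. PIGS, TIPRL and MRPL58 were nearest to PPP1CB, at distances of 0.0728, 0.0735 and 0.100, and their log2 fold changes were -0.86, -0.91 and -0.85. ZNF549, NORAD and ZFP36L1 were nearest to ROCK2, at 0.0709, 0.0748 and 0.0872, with 0.55, 0.57 and 0.57. Over so few libraries in 2 groups the distance mostly reflects a fold change of similar size.

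Other genes of the pathway were followed with 4 lists of 49 genes by role, of which 37 were tested. In these lists 10 genes were higher, 13 were lower and 14 did not pass the test, so that 62.2% of the tested genes were called, against 54.5% of all tested genes. Their median log2 fold change was 0.06 and their median absolute log2 fold change 0.30, against -0.01 and 0.37 over all tested genes.

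**Figure D5:**
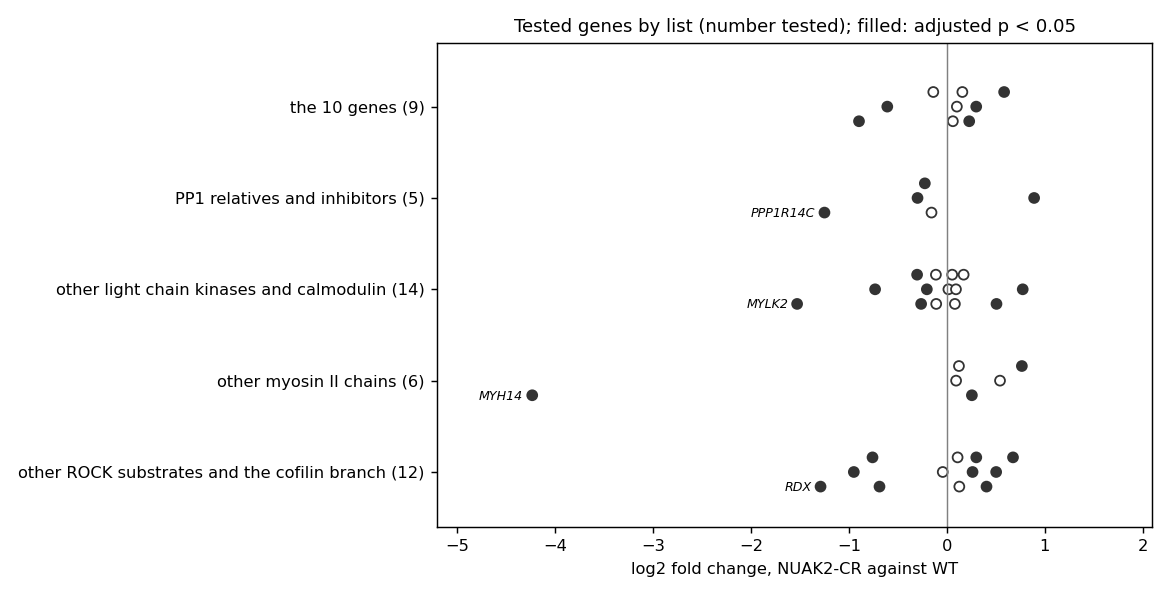
Log2 fold change (NUAK2-CR against WT) of each tested gene of the 10 genes and of the 4 pathway lists, filled where the adjusted p was under 0.05 and named where the absolute value was over 1. None of the 10 genes passes 1 in either direction, and every list has filled points on both sides of 0.

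Among the relatives and inhibitors of the phosphatase, 1 of 5 tested genes was higher and 3 were lower. PPP1R16A, a membrane-bound relative of MYPT1, was higher (log2 fold change 0.89, SE 0.09, adjusted p = 5.83e-06). The tested inhibitors of the CPI-17 family, PPP1R14C and PPP1R14B, were both lower. PPP1R14C was at 577, 551 and 527 normalized counts in WT, against 223, 209 and 263 in NUAK2-CR (-1.25, SE 0.13, adjusted p = 3.95e-06), with no overlap. PPP1R14B changed less (-0.22, SE 0.07, adjusted p = 0.0182) and lost its call without WT replicate 3 (adjusted p = 0.0702) or NUAK2-CR replicate 1 (0.0846) or 3 (0.0942). PPP1R14A, the smooth muscle inhibitor CPI-17 itself, was at 0 in every library.

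Among 14 tested genes for other light chain kinases and calmodulin, 2 were higher, 5 were lower and 7 did not pass. MYLK2, the skeletal muscle form of the kinase, was lower at a low level, with 320.2, 250.8 and 268 normalized counts in WT, against 104, 92.9 and 94.4 in NUAK2-CR (log2 fold change -1.53, SE 0.17, adjusted p = 8.35e-06). The other calls were MYLK4 and DAPK1 higher and CDC42BPA, CDC42BPG, CIT and CALM3 lower. The MYLK4 and CIT calls were each lost in at least 3 of the 6 settings that left out 1 library. Per transcript length MYLK (37.5 in WT) was far above MYLK2 (2.66 in WT).

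Of the other myosin II chains, 6 of 14 listed genes were tested. MYH9, the heavy chain of non-muscle myosin IIA and the partner of these light chains, had 64521, 55356 and 53208 normalized counts in WT, against 100551, 107031 and 86937 in NUAK2-CR. All NUAK2-CR libraries were higher (log2 fold change 0.77, SE 0.09, adjusted p = 1.94e-05). MYH10, the heavy chain of myosin IIB, overlapped between groups (0.12, SE 0.09, adjusted p = 0.259) and passed only without WT replicate 1 (0.22, adjusted p = 0.0137). MYL6, the essential light chain of non-muscle myosin, was higher (0.26, SE 0.09, adjusted p = 0.0221), but lost its call without NUAK2-CR replicate 2 (0.22, adjusted p = 0.101) or 3 (0.26, adjusted p = 0.0602). MYH14, the heavy chain of myosin IIC, was called lower from 47.0 ± 17.0 to 2.38 ± 0.174 normalized counts, a level at which it adds little to the heavy chain message.

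Of 12 other ROCK substrates and genes of the cofilin branch, 5 were higher, 4 lower and 3 did not pass. The ERM proteins, which tie actin to the membrane and are phosphorylated by ROCK, were all lower. RDX (radixin) was at 12934, 14999 and 14120.2 normalized counts in WT, against 5669.6, 5579 and 5965 in NUAK2-CR (log2 fold change -1.29, SE 0.07, adjusted p = 2.82e-08). EZR (-0.69) and MSN (-0.76) also fell, with adjusted p of 2.12e-06 and 6.90e-07, and were singled out after their values had been seen. LIMK1 and LIMK2, the ROCK substrates that inactivate cofilin, were higher, at 0.26 (adjusted p = 0.0125) and 0.41 (adjusted p = 0.00104), and LIMK1 lost its call without WT replicate 2 (0.19, adjusted p = 0.0512). Of the cofilin family, DSTN (destrin) rose (0.68, SE 0.07, adjusted p = 6.32e-06), while CFL2 (0.13, adjusted p = 0.192) and CFL1 (0.11, adjusted p = 0.198) did not pass, CFL1 except without WT replicate 1 (0.16, adjusted p = 0.0296). The slingshot phosphatases, which activate cofilin, went both ways. SSH1 was higher (0.50, adjusted p = 5.88e-05), SSH2 was lower (-0.95, adjusted p = 3.29e-06), and SSH3 was called higher (0.30, adjusted p = 0.0232) but lost its call without WT replicate 2 (0.0600) or 3 (0.0574) or NUAK2-CR replicate 1 (0.103).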

How the data were processed

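Libraries of polyadenylated RNA (6 in all) were made with a stranded Illumina mRNA kit and sequenced as paired reads of 100 bases. After trimming (Trimmomatic), the authors used HISAT2 for alignment to hg38 and featureCounts for counting, all at default parameters. The deposited values are raw counts per NCBI gene identifier. Tool versions, gene annotation and strand setting are not given in the sources used here, so a gene with an antisense partner is uncertain. Of 28395 identifiers, 27745 matched a RefSeq symbol and 650 did not.

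Genes were filtered with filterByExpr, scaled with TMM and tested with edgeR 4.0.16 (quasi-likelihood F test, group only, R 4.3.3), with Benjamini-Hochberg adjustment over 14873 genes and a threshold of 0.05. The common coefficient of biological variation came to 0.101. The scripts were tested on simulated data. Normalized counts are raw counts brought to the average TMM-adjusted library size. Levels per kilobase used the GENCODE v44 transcript chosen for each gene on GRCh38. Gene spans and neighbour distances used RefSeq coordinates, while strands and the light chain windows are from GENCODE v44. Total counts per library were 29648445 to 55574081, which sets the precision.

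The members and lists were chosen with earlier results of these data known. The named genes are the 10 members, NUAK2, pathway genes called with an absolute log2 fold change over 1 and averaging 100 or more normalized counts where higher, the nearest paralogs, and the 3 most similar profiles to the called genes with the largest rise and fall. Other named pathway genes were chosen after their values were seen. The alternatives were DESeq2 1.42.0, RLE and library-size scaling, no filter, at least 10 counts in every library, each library left out, a replicate block, read shares without length, and 10 or 50 neighbours. Replicate numbers did not pair the libraries. Markers of fibroblast, endothelium, leukocyte, epithelium and neuron were also summed. These are described under the other observations. MYLPF was not analysed here, and some items withheld for evaluation, with 1 pathway list, are not reported here. Figures were drawn with matplotlib 3.10.9.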

Additional observations from a re-analysis of the deposited data

How the results depend on the processing

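PPP1CB (log2 fold change -0.97 to -0.84), MYLK (-0.64 to -0.58), ROCK2 (0.53 to 0.63) and MYL12A (0.25 to 0.37) kept their direction and their call in all 12 alternatives, as did NUAK2. Leaving out 1 library gave 4 to 7 members called, 2 to 5 of them higher. PPP1R12A lost its call without NUAK2-CR replicate 1 (0.18). Without WT replicate 1, PPP1R12C and ROCK1 gained a call and MYL12B turned to -0.032 (0.15 without NUAK2-CR replicate 1). Leaving out 1 library moved the number of higher genes to 1 to 3 for other light chain kinases and calmodulin (1 without WT replicate 2, WT replicate 3 or NUAK2-CR replicate 1), 1 to 4 for other myosin II chains (4 without WT replicate 1, 1 without NUAK2-CR replicate 2 or 3) and 3 to 6 for other ROCK substrates (3 without WT replicate 2). DESeq2 called 1 light chain kinase gene higher, and with at least 10 counts in every library 0 other myosin II chains were lower, since MYH14 was then not tested. The PPP1R12B share differed by -1.72 percentage points as read shares and by -0.47 per length. The neighbours' median turned to 0.020 for PPP1CB with 50 genes and to -0.092 for ROCK2 with 10, those of PPP1R12A, PPP1R12C, MYLK and ROCK1 also moved as given above, and the cause was not tested. MYL9 was tested by edgeR only without a filter (adjusted p = 0.623). DESeq2 gave it a log2 fold change of -0.52 (SE 4.08) but no adjusted p.

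Genes called numbered 7190 to 8481 over these settings, 8053 of them under DESeq2. The same-numbered libraries correlated in their deviations at 0.04, -0.02 and 0.04, so the numbers do not pair them. With the replicate block 8167 genes were called, against 8107, and 5 members, as without it. The median of all genes stayed within 0.05 of 0 on the log2 scale under each scaling.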

Other observations

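Markers of other cell types were summed beside the myosin regulators. Fibroblast markers had 61378 to 65609 summed normalized counts in WT and 77046 to 81900 in NUAK2-CR. COL1A2 (log2 fold change 0.78), PDGFRB (1.03), DCN (5.97) and LUM (2.50) were higher, and DCN and LUM were near 0 in WT. COL1A1 (-1.15), PDGFRA (-2.54) and THY1 (-0.54) were lower. Neuronal markers had 450.4 to 583 in WT and 1423 to 1708 in NUAK2-CR. SYT1 held most of the WT sum and was higher in NUAK2-CR (0.65), as were SNAP25 (3.56) and STMN2 (5.27), while RBFOX3 did not pass the test (-0.68, adjusted p = 0.328). Endothelial markers had 248 to 336 in WT and 186 to 218 in NUAK2-CR. Most of that sum was KDR, which was lower (-1.24), while PECAM1 (4.53) and VWF (1.69) were higher at low levels. Epithelial markers had 2093 to 2277 in WT and 1418 to 1566 in NUAK2-CR, nearly all of it KRT8. Leukocyte markers had 658 to 742 in WT and 204 to 250.8 in NUAK2-CR, nearly all of it CD68, while PTPRC and CD3E had at most 3 counts in any library. Their part in the values of the myosin regulators was not tested.

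NUAK1, the nearest relative of NUAK2, was higher in NUAK2-CR, from 1711 ± 31.3 to 2736 ± 109 normalized counts (log2 fold change 0.68, SE 0.07, edgeR adjusted p = 3.38e-06, n = 3). STK11, which encodes the activating kinase LKB1, did not pass the test (-0.12, SE 0.08, adjusted p = 0.222).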
